A study of Mus musculus with 6 samples.

Results

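The cytoplasmic dynein light chains were examined in primary fibroblasts that lacked the transcription factor ASCIZ. The genes were chosen by name: the LC8 chains Dynll1 and Dynll2, the Tctex chains Dynlt1 and Dynlt3, and the roadblock chains Dynlrb1 and Dynlrb2. Probes entered under these names or their older names, and 9 of the 45281 probes on the array carried one. Testing required signal above background, taken as a detection p below 0.05, on 3 or more of the 6 arrays. Of the 9 probes 5 met this, and they covered 4 of the 6 genes.

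Mouse embryonic fibroblasts are adherent connective-tissue cells grown from a dissociated embryo. They were taken at embryonic day 12.5 from Asciz-/- and Asciz+/+ embryos, all on the C57BL/6 genetic background, and passaged once before total RNA was isolated. There were 3 cultures of each genotype, each from its own embryo, and 1 array per culture. The labels name no treatment and do not say which part of the gene was deleted. Asciz is now named Atmin.

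Cytoplasmic dynein is the motor that carries cargo towards the minus ends of microtubules. Its heavy chains hold the motor, its intermediate chains form a scaffold, and 3 families of small light chains bind that scaffold as dimers. LC8, the product of Dynll1 and of its close paralogue Dynll2, also binds many proteins outside dynein and helps them to pair. Tctex and roadblock chains bind neighbouring stretches of the intermediate chain. ASCIZ is known as an activator of the Dynll1 promoter, and LC8 in turn binds ASCIZ.

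Promoters are shown for Dynll1, which fell, and for Dynlt3 and Dynlrb1, which did not pass the test. That of Dynll2, which was detected and did not pass either, was not analysed here. Each sequence is the run of 250 bases before the annotated start, 5′ to 3′ on the gene's strand, from RefSeq on GRCm38.p6. Capitals mark the CCAAT box (letters CCAAT) and the GC box (letters GGGCGG), each searched on both strands, so that the reverse complement reads ATTGG or CCGCCC. Dynll1 lies at chr5:115300991-115301240 on the minus strand. Dynlt3 lies at chrX:9662984-9663233 on the minus strand, and the first of the windows of Dynlrb1 at chr2:155236283-155236532 on the plus strand.
Dynll1: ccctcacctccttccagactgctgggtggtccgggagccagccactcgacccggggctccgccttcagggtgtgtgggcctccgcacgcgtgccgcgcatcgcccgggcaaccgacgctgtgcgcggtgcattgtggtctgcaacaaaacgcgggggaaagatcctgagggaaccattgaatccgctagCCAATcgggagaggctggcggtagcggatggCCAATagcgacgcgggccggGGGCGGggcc
Dynlt3: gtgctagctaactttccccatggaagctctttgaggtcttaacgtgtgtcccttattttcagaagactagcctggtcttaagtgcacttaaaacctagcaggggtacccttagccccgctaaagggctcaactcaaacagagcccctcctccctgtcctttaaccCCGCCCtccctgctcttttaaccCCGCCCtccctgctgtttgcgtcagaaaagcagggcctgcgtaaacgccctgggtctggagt
Dynlrb1: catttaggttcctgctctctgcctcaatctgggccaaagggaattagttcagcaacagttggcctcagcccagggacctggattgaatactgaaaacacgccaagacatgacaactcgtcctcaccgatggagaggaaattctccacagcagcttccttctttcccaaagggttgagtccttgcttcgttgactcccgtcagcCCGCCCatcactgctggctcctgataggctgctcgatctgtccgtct

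The Dynll1 window held 2 CCAAT boxes, whose first bases lay 61 and 30 bases before the start, and 1 GC box at 10 bases before it. The Dynlt3 window held 2 GC boxes and the Dynlrb1 window 1, all on the opposite strand, and neither held CCAAT. A second annotated start of Dynlrb1 has its window at chr2:155236358-155236607, which overlaps the one shown and held 2 GC boxes, 1 of them on the gene's strand, with 56.0% G and C and 14 CG pairs. No marked motifs overlapped. Of 32851 promoter windows of this length, 33.8% held CCAAT and 32.7% held GGGCGG. The letters TATAAA, the TATA box, were in 12.4% of windows and in none of these 3. G and C made up 68.8% of the Dynll1 window, 54.0% of the Dynlt3 window and 53.2% of the Dynlrb1 window, beside a median of 52.4% over all windows. The Dynll1 window held 26 CG pairs and the median window 6. These matches are a description of the letters and show no binding. No binding site of ASCIZ was searched for, and a link between these letters and the fall of Dynll1 was not tested.

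The arrays differed in quality, with limma array weights from 0.43 for knockout replicate 3 and 0.60 for knockout replicate 1 to 2.20 for knockout replicate 2, where a low weight marks an array farther from its group. Between 17580 and 18794 probes per array were detected, and precision was limited by having 3 arrays of each genotype. Before normalization the median intensity of the tested probes ran from 191.2 in knockout replicate 3 to 281.7 in wild-type replicate 1, so values were compared after normalization, on a log2 scale. Knockout replicate 3 stood farthest from the others, with a mean correlation of 0.979 across probes against 0.985 to 0.989. Wild-type replicate 1 carried Xist, the RNA of the inactive X, at a log2 level of 9.34, while the 5 remaining arrays read 4.20 to 4.40. The Y chromosome genes Ddx3y and Eif2s3y read 5.37 and 4.35 there, against 9.80 to 10.48 and 8.45 to 8.88 on the 5 remaining arrays. By these genes that culture was female and the others male, so sex was not balanced between genotypes. All 10 fibroblast markers were detected, and they averaged 10.40 to 10.74 in wild-type and 10.15 to 10.88 in knockout cultures. The 9 detected of 10 skeletal muscle markers averaged 7.57 to 8.22 in wild-type and 8.27 to 8.70 in knockout cultures, and Myod1 was not detected. The 7 detected of 10 macrophage markers averaged 6.57 to 7.50 and 5.62 to 6.18, and C1qa, Csf1r and Ptprc were not detected. The part of these cells in the results below was not tested.

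Atmin itself, the targeted gene, was lower on all 3 knockout arrays. Its brightest probe read 8.70, 8.87 and 8.77 in wild-type and 6.93, 6.95 and 6.47 in knockout replicates 1 to 3, a log2 fold change of -1.99 (SE 0.16, adjusted p = 0.00646 by limma). A second probe gave -1.95 (SE 0.14, adjusted p = 0.00427 by limma), and a further, dim probe, detected on 1 wild-type and 2 knockout arrays, gave 0.11 (SE 0.25). The call of the brightest probe was lost without any 1 of the wild-type arrays (adjusted p from 0.0539 to 0.0779 by limma), at log2 fold changes between -2.03 and -1.95, and without the filter on dim probes (adjusted p = 0.0579 by limma). That of the second probe was lost without wild-type replicate 1 (adjusted p = 0.0601 by limma) or 3 (adjusted p = 0.0653 by limma). In the submitters' normalized values, whose log base is not stated, the difference was -0.90 for the second probe and -1.20 for the brightest. The sources used here do not say whether these probes lie in the deleted stretch.

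Dynll1, which encodes an LC8 chain, fell to 26.9% of its wild-type signal. The intensity of the probe DYNLL1, in units of mean bead brightness as deposited, was 10152, 7979 and 9030 in wild-type replicates 1 to 3. In knockout replicates 1 to 3 it was 2750, 2241 and 1931. The highest knockout array thus lay far below the lowest wild-type array. After normalization the probe read 13.21, 13.08 and 13.11 on the log2 scale in wild-type cultures, and 11.22, 11.25 and 11.25 in knockout cultures. The groups did not overlap, and the means were 13.13 ± 0.07 and 11.24 ± 0.02 (SD, n = 3 each). The log2 fold change was -1.89 (SE 0.11, 95% interval -2.15 to -1.64, adjusted p = 0.00182 by limma). Knockout cultures therefore kept 26.9% of the wild-type signal, with an interval from 22.6% to 32.1%. In bulk RNA, fewer expressing cells and less RNA per cell cannot be told apart.

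The second Dynll1 probe, which carries the older name DNCLC1, fell as well. Its intensity was 1415, 818.8 and 1301 in wild-type replicates 1 to 3, and 269.5, 252 and 229.5 in knockout replicates 1 to 3. On the log2 scale it read 10.00, 9.83 and 10.08 against 7.46, 7.76 and 7.75, and the groups did not overlap. Knockout minus wild type gave a log2 fold change of -2.31 (SE 0.14, 95% interval -2.63 to -2.00, adjusted p = 0.00182 by limma), which leaves 20.1% of the wild-type signal, with an interval from 16.1% to 25.1%. Within arrays, DNCLC1 minus DYNLL1 on the log2 scale was -3.16 ± 0.11 in wild-type and -3.58 ± 0.15 in knockout cultures (mean ± SD). This shift of -0.42 had an exact permutation p of 0.10, two-sided, the smallest that 3 arrays against 3 allow, and the pair was chosen after the values were seen. The gap between the probes changed with the processing. Without background correction they gave -1.98 for DNCLC1 and -1.86 for DYNLL1, and in the submitters' normalized values the order turned round, at -1.77 for DNCLC1 and -1.95 for DYNLL1. With scaling of the arrays to a common median, DNCLC1 gave -2.53. The median log2 fold change over all tested probes was then -0.18.

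The bead data put a scale on the measurement error. Each probe is carried by many beads, 23 to 53 per array for DYNLL1 and 47 to 63 for DNCLC1. The standard error over beads was 3.41% to 6.79% of the intensity for DYNLL1 and 3.37% to 4.78% for DNCLC1. Between cultures the deposited intensity of DYNLL1 had a coefficient of variation of 12.0% in wild-type and 17.9% in knockout cultures, before normalization. For DNCLC1 it was 26.8% and 8.0%. Both kinds of spread were small beside the loss of Dynll1 signal.

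**Figure D1:**
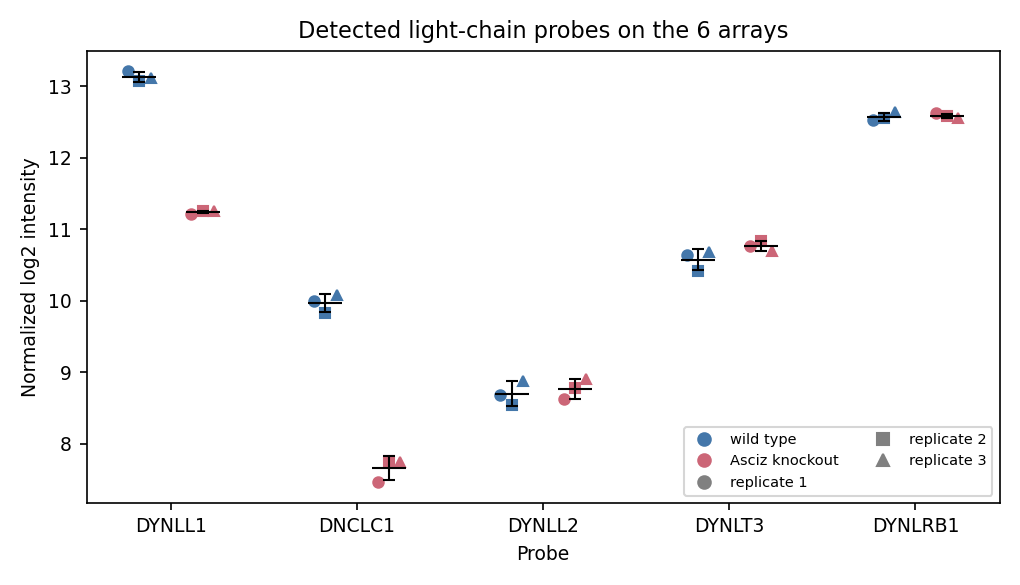
Normalized log2 intensity (y axis) of the 5 tested light-chain probes (x axis) on each array, wild type in blue and knockout in red, with a marker shape per replicate number; black lines give the mean and bars the SD of 3 arrays. DYNLL1 and DNCLC1 separate widely (13.13 against 11.24, and 9.97 against 7.66), while the 3 other probes lie close together; levels of different probes are not comparable.

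Of the 5 tested light-chain probes, 2 passed an adjusted p of 0.05, both of Dynll1 and both lower, and none was higher. Among all 18221 tested probes 0.022% passed in that direction: the 2 Dynll1 probes and 2 Atmin probes. DYNLL1 had the smallest p of all tested probes and DNCLC1 the next. By log2 fold change DNCLC1 was the lowest of all tested probes, and DYNLL1 had rank 6 from the lowest. Both stayed past the threshold in each alternative that tested them, 18 for DYNLL1 and 17 for DNCLC1, with adjusted p up to 0.0395 for either. The wild-type signal kept by knockout cultures ranged over these alternatives from 25.6% to 29.8% for DYNLL1 and from 17.3% to 29.3% for DNCLC1, where the submitters' normalized values were read as log2.

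Dynll2, the paralogue of Dynll1, did not pass in either direction. Of its 2 probes named DYNLL2, the tested one had intensities of 614.6, 373.8 and 618.5 in wild-type replicates 1 to 3, and 517.7, 438.2 and 422.5 in knockout replicates 1 to 3. On the log2 scale it read 8.68, 8.54 and 8.88 against 8.62, 8.78 and 8.90, so the groups overlapped. This is a log2 fold change of 0.07 (SE 0.14, 95% interval -0.26 to 0.39, adjusted p = 0.927 by limma). Under median scaling it was -0.16, beside a median log2 fold change of -0.18 over all tested probes. The 95% interval spans knockout levels from 0.84 to 1.31 times the wild-type level, so a rise above 1.31-fold lay outside it. It is not adjusted for the number of probes and sets no limit of what would pass. Ms4a7, a gene with the same SE, had a log2 fold change of -0.92 and did not pass (adjusted p = 0.222 by limma). With 3 arrays per genotype, a change of Dynll2 of that size or smaller could not be expected to pass. The other DYNLL2 probe stayed at background on all 6 arrays, at intensities from 79.1 to 91.9.

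The levels of Dynll1 and Dynll2 were also set against each other within arrays. The log2 difference between the DYNLL1 and DYNLL2 probes within an array was 4.53, 4.54 and 4.23 in wild-type replicates 1 to 3 and 2.59, 2.47 and 2.35 in knockout replicates 1 to 3. The groups did not overlap and the mean shift was -1.96, with an exact permutation p of 0.10, the smallest possible here, and 0.10 adjusted over the 3 comparisons of this kind. For Dynlt3 the corresponding shift was -2.08 and for Dynlrb1 -1.90, each with an exact permutation p of 0.10. A shift within an array shows unequal change of the paired probes and not that either probe was constant. The DYNLL1 probe enters all 3 differences, so they are no further tests of its fall.

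Dynlt3, the Tctex chain of this set that was measured above background, was slightly higher in knockout cultures without passing the test. The probe DYNLT3 had intensities of 2134, 1185 and 1935 in wild-type replicates 1 to 3 and 2023, 1678 and 1308 in knockout replicates 1 to 3. After normalization it read 10.64, 10.41 and 10.68 against 10.77, 10.83 and 10.70, with the lowest knockout array just above the highest wild-type array. Dynlt3 thus had a log2 fold change of 0.19 (SE 0.12, 95% interval -0.10 to 0.48, adjusted p = 0.75 by limma), or 1.14-fold with an interval from 0.93 to 1.39. The groups did not overlap for 3 of the 5 light-chain probes, the pair for Dynll1 and this one, beside 14.1% of all tested probes. Dynlt3 lies on the X chromosome, and without wild-type replicate 1, the culture with Xist, its value was 0.22. Under median scaling it was 0.0040, beside a median log2 fold change of -0.18 over all tested probes. With scaling to the median of the tested probes alone it was 0.22, beside 0.04.

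Dynlt1, the first Tctex chain described, was not measured above background. The reference lists 4 near-identical copies of this gene on mouse chromosome 17, and the name DYNLT1 on the array does not tell them apart. The probe's intensity was 99.7, 92.1 and 80.4 in wild-type replicates 1 to 3 and 92.8, 82.5 and 83.6 in knockout replicates 1 to 3, with detection p from 0.103 to 0.931. These values bound the signal of this probe and say nothing about the protein.

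Dynlrb1, the roadblock chain, was measured at nearly equal levels in both genotypes. The probe DYNLRB1 had intensities of 7198, 5147 and 6954 in wild-type replicates 1 to 3 and 7148, 5813 and 5011 in knockout replicates 1 to 3. Normalized, it read 12.53, 12.56 and 12.64 against 12.62, 12.58 and 12.56, and the groups overlapped. The log2 fold change was 0.01 (SE 0.11, 95% interval -0.24 to 0.26, adjusted p = 0.989 by limma), so that a knockout level outside 0.85 to 1.20 times the wild-type level lay beyond the interval. A second Dynlrb1 probe, under the older name DNCL2A, stayed at background on all 6 arrays, at intensities from 79.8 to 87.9.

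Dynlrb2, the roadblock paralogue best known from ciliated cells and testis, gave no signal above background. Its probe DYNLRB2 read intensities of 94.7, 92.4 and 83.6 in wild-type replicates 1 to 3 and 84.9, 85.7 and 80.5 in knockout replicates 1 to 3. The smallest detection p was 0.0929, so no array of either genotype passed. Dynlrb2 lies on the same chromosome as Atmin, with 3 protein-coding genes between them on assembly GRCm38.p6. Of 6 markers of multiciliated cells 2 were detected, Foxj1 and Rsph1, and neither passed the test.

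**Figure D2:**
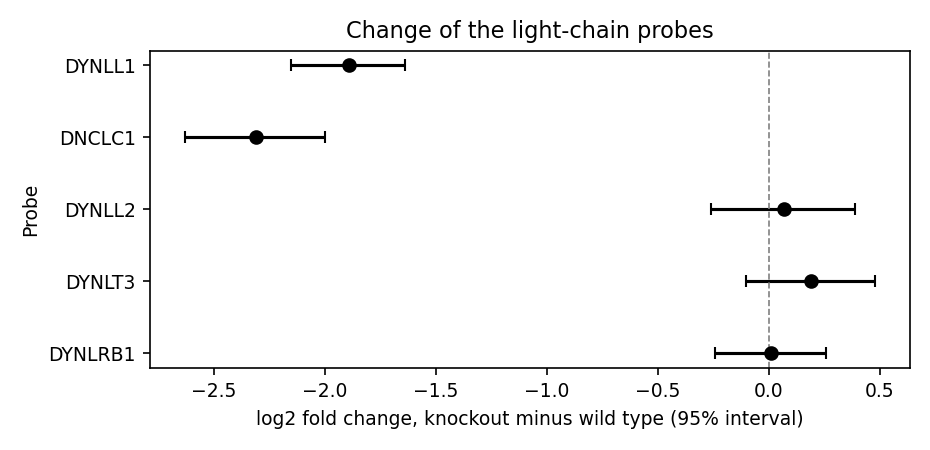
The log2 fold change of each tested light-chain probe (x axis, knockout minus wild type, 3 arrays each) with its 95% interval as a bar. The intervals of DYNLL1 and DNCLC1 end at -1.64 and -2.00, and those of DYNLL2, DYNLT3 and DYNLRB1 include 0. Under median scaling DYNLL2 turned to -0.16 and DYNLRB1 to -0.05, beside a median of -0.18 over all tested probes.

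The summed brightness shows how much light-chain signal went with Dynll1. The brightest probe of each of the 4 measured genes was taken back from the log2 scale, without the offset, and added up on each array. Probes differ in how well they bind, so these shares are of array signal and not of transcripts. The sum was 17311, 16348 and 17258 intensity units in wild-type replicates 1 to 3 and 10728, 10747 and 10560 in knockout replicates 1 to 3. The groups did not overlap, and the mean went from 16972 ± 541 to 10678 ± 103 units (SD), a loss of 37.1% (exact permutation p = 0.10, two-sided, the smallest possible). Dynll1 is part of this sum, so the separation is no further test of its fall.

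The loss of Dynll1 signal was slightly larger than that of the sum. Dynll1 contributed 52.84% ± 1.72 of the sum in wild-type and 22.49% ± 0.45 in knockout cultures (SD, n = 3 each), and its mean fell by 6568 units while the sum fell by 6294 units. Without Dynll1 the remaining 3 genes added up to 7859, 7721 and 8429 units in wild-type replicates 1 to 3 and 8365, 8329 and 8139 in knockout replicates 1 to 3. These overlapped, at means of 8003 ± 375 and 8278 ± 122 units (SD; exact permutation p = 0.4). The difference of 274 units was small beside the loss of Dynll1. Of it, 211.7 units came from Dynlt3, at means of 1514 in wild-type and 1726 in knockout cultures (exact permutation p = 0.1, the smallest possible). Dynll2 gave 19.6 and Dynlrb1 43.1 units (exact permutation p = 0.7 and 0.8).

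Within the LC8 pair, the signal of both genes together was 9845, 8983 and 9285 units in wild-type replicates 1 to 3 and 2741, 2841 and 2884 in knockout replicates 1 to 3. Knockout cultures kept 30.1% of it. Dynll2 gave 393.1, 356.8 and 455.3 units in wild-type and 377.9, 423.3 and 462.8 in knockout replicates 1 to 3, which differ by 19.6 units on average (exact permutation p = 0.7). Its share of LC8 signal was 3.99%, 3.97% and 4.90% in wild-type cultures and 13.78%, 14.90% and 16.05% in knockout cultures. The groups did not overlap, and Dynll1 is part of the denominator of this share.

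**Figure D3:**
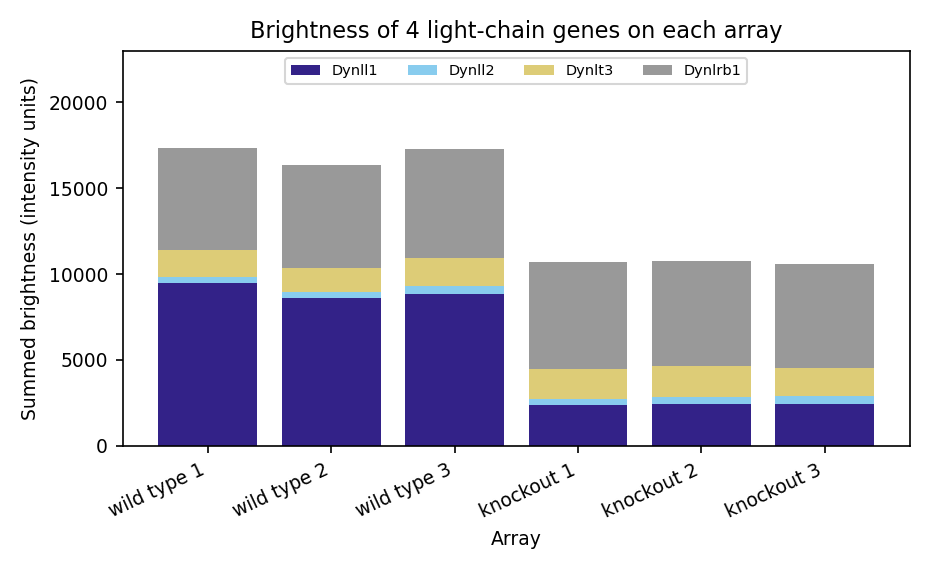
Stacked bars of background-corrected, normalized brightness (y axis, intensity units from 0) of the brightest probe of Dynll1, Dynll2, Dynlt3 and Dynlrb1 on each array (x axis). The knockout bars reach 10560 to 10747 units against 16348 to 17311 in wild type, and the Dynll1 segment is the one that shrinks; heights of different segments depend on the probes.

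The other parts of the motor were looked at through 30 genes of the dynein heavy, intermediate and light intermediate chains, of dynactin, the complex that links dynein to cargo, and of dynein's adaptors and regulators. Of these 27 were detected, with 47 probes. None passed over all probes, in either direction, by limma or in any of its 18 alternatives, and 1 probe had an unadjusted p under 0.05, beside 7.53% of all tested probes. The median log2 fold change was -0.05, beside -0.01 over all tested probes, with 29 probes below and 18 above 0. Values ran from -0.36 to 0.33.

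That probe was for Nde1, a partner of LIS1 that regulates dynein (-0.36, SE 0.12, adjusted p = 0.607 by limma), which read 8.03 ± 0.09 in wild-type and 7.67 ± 0.08 in knockout cultures. A second Nde1 probe gave -0.26 (SE 0.13). A Pafah1b1 probe, for LIS1 itself, gave -0.27 (SE 0.14) and was detected on 2 of the 3 knockout arrays, while the brightest Pafah1b1 probe gave -0.03. On the higher side, Dync2li1, the light intermediate chain of the dynein that works in cilia, gave 0.33 (SE 0.14, adjusted p = 0.667 by limma). A probe for Dctn3, a small subunit of dynactin, gave 0.30 (SE 0.13), and the brightest Dctn3 probe gave 0.12. For Hook3, an adaptor for dynein, the probes disagreed in sign, at 0.25 (SE 0.14) and -0.25 for the brightest. The brightest probe of Dync1h1, the heavy chain that holds the motor, gave 0.14, with an interval from -0.16 to 0.45.

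Further dynein light chains, among them more members of the Tctex family, were taken from a list of 8 names. Under these names 2 genes were detected, with 4 probes. None passed over all probes by limma, while 3 had an unadjusted p under 0.05, beside 7.53% of all tested probes, all of them probes of 1 gene, Dnal1, a light chain of the outer arm dynein of cilia. They gave 0.43 (SE 0.17), 0.39 (SE 0.15) and 0.28 (SE 0.11), each with groups that did not overlap, beside 14.1% of all tested probes, and adjusted p from 0.643 to 0.652 by limma. Tctex1d2, a Tctex chain of the dynein of cilia, gave 0.04 (SE 0.13). Dnal4, Dnali1, Tcte3, Tctex1d1 and Tctex1d4 were not detected by this rule.

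**Figure D4:**
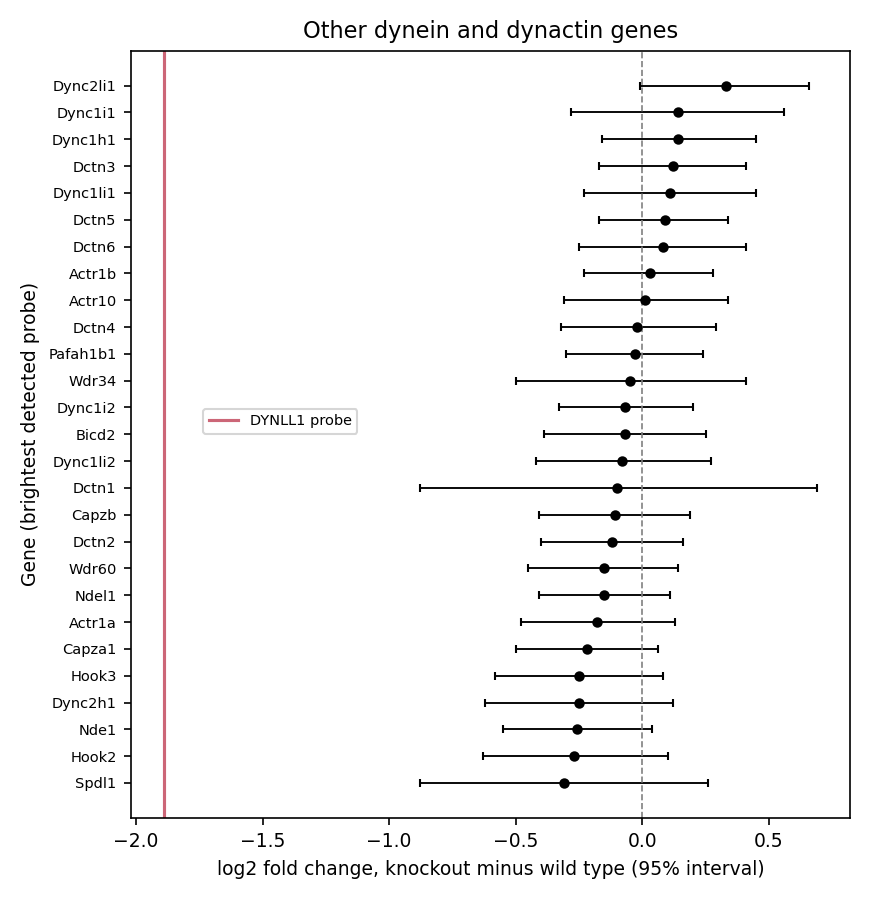
The log2 fold change (x axis, knockout minus wild type, 3 arrays each) with its 95% interval for the brightest detected probe of 27 dynein, dynactin and regulator genes (y axis), sorted by value; the red line marks the DYNLL1 probe at -1.89. The genes run from -0.31 for Spdl1 to 0.33 for Dync2li1 and none passed the test.

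Genes that followed Dynll1 across the arrays were ranked by Pearson correlation with the DYNLL1 probe over the 6 arrays, among 536 named genes with an SD over arrays of at least 0.5. The nearest was Atmin, at 0.983. It was followed by Ms4a7, a membrane protein of macrophages, at 0.958, C1qtnf3, a secreted protein related to adiponectin, at 0.938, Slitrk5, a membrane protein of neurons, at 0.902, and Laptm5, a lysosomal protein of blood cells, at 0.880. The 6 arrays are 2 groups that lie far apart in Dynll1, so this correlation is a description. Of the 5 genes Atmin alone passed the test, and the next, Ms4a7, had -0.92 (SE 0.14, adjusted p = 0.222 by limma) and was not detected on any knockout array. Laptm5 is also on the list of macrophage markers. All 8 tested probes of that list were below 0, at a median log2 fold change of -1.18. None of them passed, and 7 had an unadjusted p under 0.05 by limma, beside 7.53% of all tested probes. A link of these genes to Dynll1 was not tested.

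**Figure D5:**
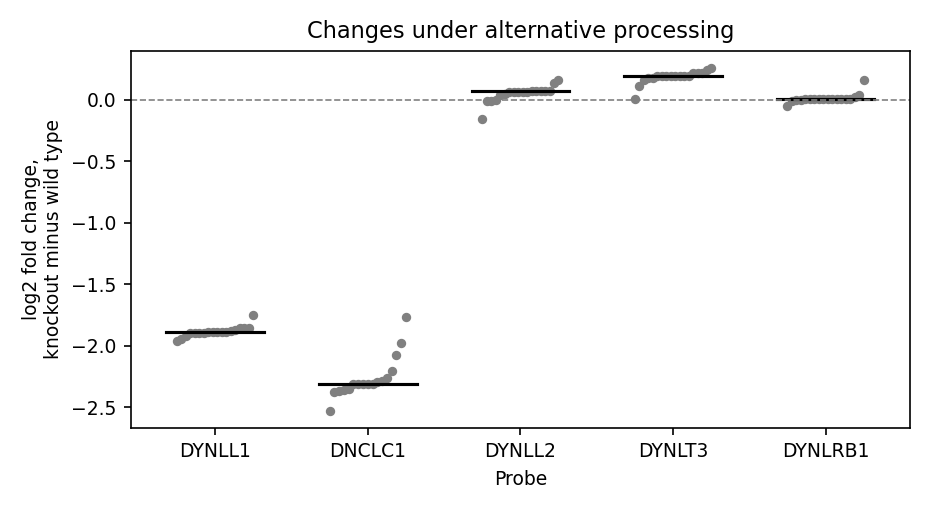
The log2 fold change (y axis) of the 5 tested light-chain probes (x axis) as reported (black line) and under each alternative processing (grey points, sorted by value). DYNLL1 stayed between -1.96 and -1.75 and DNCLC1 between -2.53 and -1.77, while DYNLL2 ran from -0.16 to 0.16, DYNLT3 from 0.0040 to 0.26 and DYNLRB1 from -0.05 to 0.16.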

How the data were processed

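RNA of 6 cultures was measured on 1-colour MouseWG-6 bead arrays. The authors deposited mean bead intensity per probe with bead SD, bead number and a detection fraction, exported with GenomeStudio version 1.6.0 without normalization, per the file headers; 24 of its 48 per-array columns were not used. The deposited normalized values are a score for which the submitters' processing notes name lumi; the sources used here state neither log base nor method, and the values served as an alternative. The remaining deposited table held the same 45281 sets of score values. Slide and scan were not given.

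Intensities were processed by the neqc function (offset 16, log2) of limma 3.58.1 under R 4.3.3, with 1 minus the detection fraction as detection p. Each of 18221 detected probes was tested with lmFit and eBayes, as knockout minus wild type (two-sided). The p-values were adjusted over all of them by Benjamini and Hochberg's method, with a threshold of 0.05. This fit alone was tried on simulated log2 values with the means and residual spread of these data. The background correction, the detection filter and the permutation tests were not tried in that way. Sums and within-array differences used exact permutation tests in scipy version 1.17.1. Names were updated through the table of GRCm38.p6, which named 80.9% of probes. Named genes are all light-chain and Atmin probes, of each dynein list up to 3 with the smallest p per direction and any past the threshold, and the 5 genes most like DYNLL1; a clone name first listed for Atmin belongs to Rnft1 in that table and was left out. Spdl1, Dync1h1 and further probes of listed genes were named after their values were seen. Members and lists were chosen with earlier results of these data known. Promoters of 3 of the 4 detected genes were matched in the RefSeq table used; that of Dynll2 was not analysed here. Alternatives changed background correction, scaling, filter, variance model, replicate block, probes per gene and the arrays included.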

Additional observations from a re-analysis of the deposited data

How the results depend on the processing

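The fall of Dynll1 kept its direction and its call under every alternative run, 18 for the probe DYNLL1 (-1.96 to -1.75) and 17 for DNCLC1 (-2.53 to -1.77). The count of called light-chain probes was 2 throughout, except 1 where a gene was tested by its brightest probe, which drops DNCLC1. The count over all probes was 8, and 4 without background correction, in the submitters' normalized values and without the filter on dim probes, 5 with detection p under 0.01 on all 6 arrays and with 1 probe per gene, and 12 with array weights; leaving out 1 array gave 2 (without wild-type replicate 1 or 3) to 7, and leaving out both wild-type replicate 1 and knockout replicate 3 gave 9. The causes of these changes were not tested. DYNLL2 turned to -0.16 and DYNLRB1 to -0.05 under median scaling, beside a median log2 fold change of -0.18 over all tested probes. With scaling to the median of the tested probes alone they gave 0.06 and 0.16, beside 0.04. Without 1 array DYNLL2 ran from -0.01 to 0.16 and DYNLRB1 from -0.01 to 0.04, with -0.01 and -0.0009 without both wild-type replicate 1 and knockout replicate 3. The dim Atmin probe turned to -0.0021 with array weights and ran from -0.09 to 0.32 without 1 array. Summed brightness changed by -0.77 to -0.52 on the log2 scale, from -0.67 as reported, and none of the 3 within-array differences between Dynll1 and another gene changed direction. The sample labels link same-numbered cultures by the number alone. Deviations from the group mean correlated at 0.22, -0.19 and -0.21 for equal replicate numbers, and at -0.32 to 0.40 for unequal numbers. With 3 arrays per group these values cannot show whether cultures shared a litter or a batch. With the replicate block Dynll1 kept -1.89 and -2.31, both at an adjusted p of 0.0395 by limma, with 6 probes called in all. Probes at background bound a signal only, and 3 arrays per genotype limit what a dim probe can show.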
